A study of Rattus norvegicus with 9 samples.

Results

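The proteins of the mitochondrial ribosome were followed here through their transcripts in the rat superior mesenteric artery (SMA), as every gene in the deposited count table whose symbol began with Mrpl or Mrps and a number. This rule found 74 of 37203 symbols, of which 46 code for proteins of the large subunit, 25 for proteins of the small subunit, 2 for copies (Mrps17-ps1 and Mrps21l) and 1, Mrps36, for a protein that current nomenclature places outside the ribosome (RefSeq calls the gene Kgd4). Mrps18a and Mrps30 were counted with the large subunit, where their proteins sit despite their names.

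The study sequenced RNA from the SMAs of 8-week-old Sprague-Dawley rats weighing 220 to 240 g, with 3 libraries in each of 3 groups. The Normal group was not made ischemic, Ischemia 1h was taken 1 h after blood loss and Ischemia 4h was taken 4 h after it. Ischemia was made by bleeding anaesthetized rats through the femoral artery, and the SMA was taken afterwards. Nothing in the labels names which rat gave which library, and the study's text can be read as 3 rats behind all 9 libraries. So n = 3 counts libraries, and how many rats stand behind them is not known. The p-values below measure the spread between these 9 libraries. Every pair of libraries differed by more than counting alone would give, with a chi-square per degree of freedom of at least 29.9. The technical part of this spread was not tested. The artery was sequenced as a whole vessel, and in such bulk RNA fewer cells of a type and less RNA per cell cannot be told apart.

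The mitochondrial ribosome makes the few proteins that the mitochondrial genome encodes, all of them parts of the respiratory chain and of ATP synthase. Its 2 ribosomal RNAs come from the mitochondrial genome, but each of its proteins is encoded in the nucleus, made in the cytosol and imported. Protein families shared with bacteria form the core around the decoding and peptidyl transferase centres, and a shell of proteins found only in mitochondria surrounds it. The factors NRF1, GABP and YY1 are known to act at many nuclear genes for mitochondrial proteins.

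Promoters are shown first, for the members whose values the results turn on, with letters that these factors are known to prefer. RefSeq (GRCr8) gave a promoter of 300 bases, from 250 before to 50 after the start of the gene, for 57 of the 74 members. Each was searched on both strands for NRF1 (GCATGCGC), the ETS site of GABP (CCGGAAGT) and YY1 (AAGATGGCG), strict forms that were picked after the values were seen. Mrps27 alone held more than 1 of these, the ETS site and YY1. NRF1 was found in 5 member promoters (8.77%, against 3.11% of 21851 promoters of coding genes), the ETS site in 8 (14% against 4.77%) and YY1 in 9 (15.8% against 2.07%). At least 1 of the 3 was present in 21 member promoters (36.8% against 9.34%), and among genes tested here in 19 of 55 (34.5%, against 14.7% of 10124). A match describes the letters and is not a bound site. Below, capitals mark such a match, and the rest is in lower case, 5′ to 3′ in the direction of the gene. Mrpl2 (chr9:21834558-21834857, minus strand) and Mrpl49 (chr1:212779278-212779577, minus strand) held none, Mrpl48 (chr1:164351327-164351626, minus strand) held the ETS site on the reverse strand, and Mrps18a (chr9:22367331-22367630, minus strand) and Mrps10 (chr9:21122404-21122703, minus strand) held YY1.
Mrpl2: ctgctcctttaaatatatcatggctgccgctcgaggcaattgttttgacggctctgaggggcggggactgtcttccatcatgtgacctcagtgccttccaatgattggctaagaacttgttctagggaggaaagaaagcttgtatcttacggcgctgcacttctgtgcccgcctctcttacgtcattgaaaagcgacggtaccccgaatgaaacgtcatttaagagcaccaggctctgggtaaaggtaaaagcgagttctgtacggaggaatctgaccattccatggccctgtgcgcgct
Mrpl49: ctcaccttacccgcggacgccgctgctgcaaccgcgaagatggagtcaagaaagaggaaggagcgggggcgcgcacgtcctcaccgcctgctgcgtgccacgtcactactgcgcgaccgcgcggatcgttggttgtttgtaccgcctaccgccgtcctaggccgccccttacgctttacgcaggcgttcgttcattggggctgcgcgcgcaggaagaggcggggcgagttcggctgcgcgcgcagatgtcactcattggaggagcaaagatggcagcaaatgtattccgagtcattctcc
Mrpl48: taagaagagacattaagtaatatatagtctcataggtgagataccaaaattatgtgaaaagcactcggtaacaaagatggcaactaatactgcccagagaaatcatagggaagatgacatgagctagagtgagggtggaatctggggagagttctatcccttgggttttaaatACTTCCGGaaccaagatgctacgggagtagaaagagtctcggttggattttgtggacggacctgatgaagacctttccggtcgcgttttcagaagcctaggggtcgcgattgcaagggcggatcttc
Mrps18a: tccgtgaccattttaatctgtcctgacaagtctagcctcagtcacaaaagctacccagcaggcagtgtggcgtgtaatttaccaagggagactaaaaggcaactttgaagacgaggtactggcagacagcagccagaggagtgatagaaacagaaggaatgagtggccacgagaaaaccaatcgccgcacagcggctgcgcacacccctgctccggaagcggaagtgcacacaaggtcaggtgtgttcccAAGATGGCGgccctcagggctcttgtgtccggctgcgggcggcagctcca
Mrps10: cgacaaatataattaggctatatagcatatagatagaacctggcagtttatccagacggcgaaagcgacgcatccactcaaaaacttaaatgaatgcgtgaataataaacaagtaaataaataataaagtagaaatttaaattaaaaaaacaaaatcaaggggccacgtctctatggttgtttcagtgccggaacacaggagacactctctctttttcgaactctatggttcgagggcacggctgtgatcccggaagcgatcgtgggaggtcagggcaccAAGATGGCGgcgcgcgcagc

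Many of these genes start back to back with another gene. A start on the opposite strand within 1000 bases, pointing away, was listed for 18 of 57 members (31.6%), against 11.6% of all coding genes and 15.7% of the coding genes tested. Mrpl46 and Mrps11, a large and a small subunit gene, start 234 bases from each other. Mrpl49 starts 186 bases from Fau, which codes for a protein of the cytosolic ribosome, and Mrpl47 starts 244 bases from Ndufb5, a subunit of respiratory complex I. Mrpl2 has its start 528 bases from that of Klc4, a kinesin light chain.

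Total counts per library ran from 13114273 to 15504240, and the members together took 16517 to 22146 counts, or 0.107 to 0.148% of each library. At least 100 counts stood behind 62 of the 74 members in every library, and the largest count of any member in any library was 1023. Smooth muscle, the main cell of the artery wall, was well represented, with Myh11 between 4693 and 23515 CPM (counts divided by the TMM-scaled library size, so that 1 CPM equals 12.1 to 17.9 counts). Sympathetic nerve genes were very uneven: Dbh, the enzyme that makes noradrenaline, was at 116, 0 and 66.5 CPM in the Normal libraries, at 1854, 226 and 1866 CPM at 1 h and at 0.661, 0.249 and 2041 CPM at 4 h. The 24 nerve genes summed to 59.6 to 790 CPM in Normal, 1181 to 11029 CPM at 1 h and 72.3 to 10844 CPM at 4 h, and 19 of the 24 were higher in every 1 h library than in every Normal library. The 3 libraries highest in nerve genes were replicates 1 and 3 at 1 h and replicate 3 at 4 h. For some results that move with them, values without them are also given below, but not for Mrps10 or Fau. These libraries also had the highest levels of the fat cell gene Ucp1, at 85.1, 2.83 and 36.6 CPM, against at most 0.0668 CPM in any other. Nerve and tissue with Ucp1 thus cannot be told apart here. The adipocyte genes together were at 3012, 3071 and 1504 CPM in them, and at 2921 CPM in replicate 1 of Normal.

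In order to see the level of the whole set, the CPM of all 74 members were summed in each library. The sums were 1100, 1392 and 1587 CPM in Normal, 1481, 1104 and 1202 CPM at 1 h, and 1717, 1438 and 1222 CPM at 4 h. All 3 groups overlapped, and their means were 1360 ± 245 CPM in Normal, 1263 ± 196 CPM at 1 h and 1459 ± 248 CPM at 4 h (SD, n = 3). The large subunit genes summed to 874 ± 177, 805 ± 128 and 943 ± 168 CPM in the same order, and the small subunit genes to 473 ± 65.9, 441 ± 61.7 and 500.0 ± 79.7 CPM. The ratio of the 2 subunit sums moved less, from 1.72 to 1.97 over the 9 libraries, with means of 1.84 ± 0.126, 1.82 ± 0.0492 and 1.88 ± 0.0942. The ratio thus covered a narrower relative range than either sum.

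**Figure D1:**
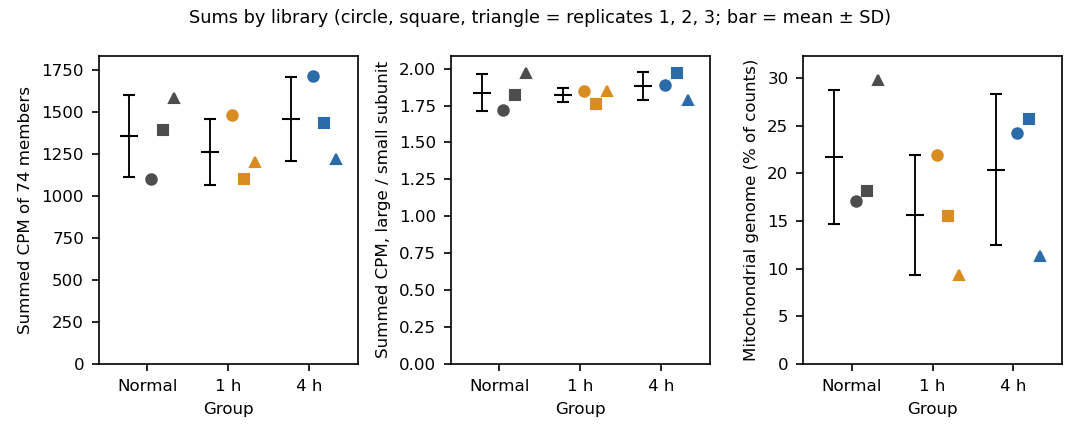
Points are libraries (circle, square and triangle for replicates 1, 2 and 3) and bars are the group mean ± SD. The left panel shows the summed CPM of the 74 members, from 1100 to 1717, the middle panel the ratio of large to small subunit sums, from 1.72 to 1.97, and the right panel the percentage of counts from the mitochondrial genome, from 9.37 to 29.8. The groups overlap in each panel.

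By CPM with the TMM factor, the members moved together between libraries of the same group. In replicate 1 of Ischemia 4h, 61 of the 70 tested members stood above their own mean and 32 had their highest value of all 9 libraries. Replicate 1 of Normal was the opposite, with 8 of the 70 above their mean and 25 at their lowest value. Replicate 2 of Ischemia 1h was like it, with 6 above their mean and 19 at their lowest. The share of counts from genes of the mitochondrial genome was 17.1, 18.1 and 29.8% in Normal, 22, 15.5 and 9.37% at 1 h and 24.2, 25.7 and 11.3% at 4 h. The 4 libraries with the highest share (replicate 3 of Normal, replicate 1 at 1 h and replicates 1 and 2 at 4 h) were also the 4 with the highest summed CPM of members by TMM. Cell markers moved too. Replicate 1 of Normal had the lowest sum of 12 smooth muscle genes (13264 CPM) and the highest sums of endothelial (1797 CPM) and leukocyte genes (141 CPM). Replicate 1 at 4 h had the highest smooth muscle sum (79763 CPM) and the lowest endothelial (646 CPM) and leukocyte sums (17.9 CPM). Replicate 2 at 1 h, also low in members, shared neither the low smooth muscle nor the high leukocyte sum of that Normal library. Its smooth muscle, endothelial and leukocyte sums were 53304, 1260 and 45.7 CPM. The part of the mitochondrial share and of these markers in the members' sums was not tested. With no TMM factor, so with scaling by library size alone, the sums were 1292, 1456 and 1430 CPM in Normal, 1484, 1066 and 1465 CPM at 1 h and 1397, 1235 and 1339 CPM at 4 h, a narrower range. The 4 highest were then replicates 1 and 3 at 1 h and replicates 2 and 3 of Normal. The match with the mitochondrial share did not hold there, since replicate 3 at 1 h had the lowest share. Replicate 1 at 4 h (TMM factor 0.814) was no longer highest, nor replicate 1 of Normal (factor 1.17) lowest. The order of these libraries thus rests on the scaling.

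**Figure D2:**
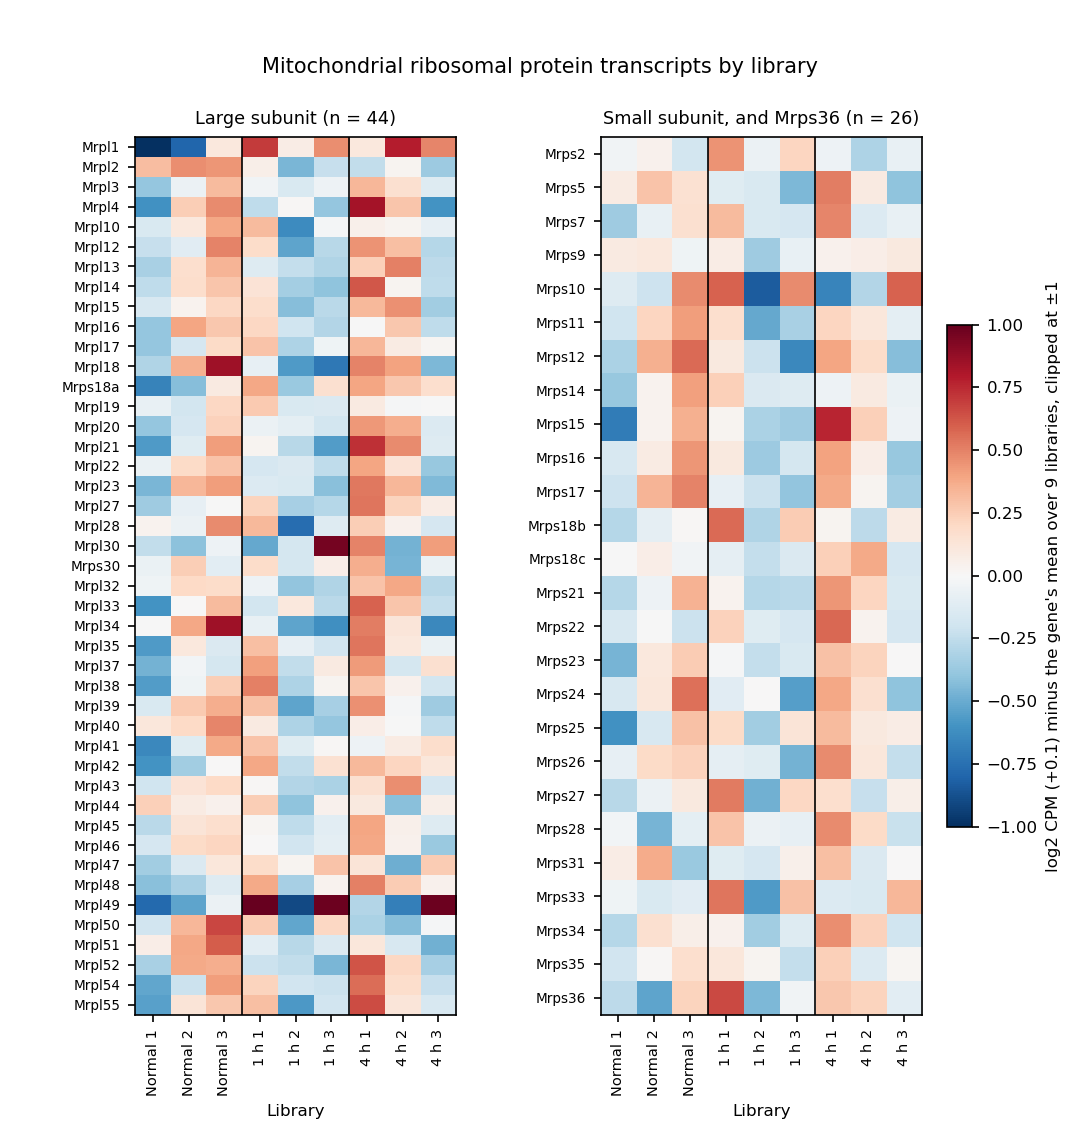
Each row is 1 of the 70 tested members and each column 1 library, with the large subunit on the left and the small subunit and Mrps36 on the right. Colour is the log2 CPM minus the mean of that gene, red above and blue below. Replicate 1 of Ischemia 4h is mostly red and replicate 1 of Normal mostly blue, and Mrpl49 stands out in replicates 1 and 3 at 1 h and replicate 3 at 4 h.

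Among the genes of this artery the members were steady. The SD of log2 CPM over the 9 libraries had a median of 0.30 over the 70 tested members, against 0.49 over all 15482 genes tested and 0.52 over the 11689 genes in the members' range of mean CPM, and it lay below the median of all genes for 64 members. The highest library exceeded the lowest by a median factor of 1.91, and 42 members (60%) stayed under a factor of 2, against 28.5% of all genes. The members' range of mean CPM ran from 0.66 to 57.0, while their quartiles were 11.8, 17.5 and 24.7 CPM. So neither background was matched to the members in level, and the part of level in these differences was not tested. Mrps9, a core protein of the small subunit, varied least. Its level was 26.2, 26.4 and 23.9 CPM in Normal, 25.9, 19.2 and 23.4 CPM at 1 h and 25.4, 25.7 and 26.3 CPM at 4 h. Mrpl19 and Mrps35 followed, with an SD of log2 CPM of 0.16 each against 0.15 for Mrps9. At the other end stood Mrpl49 (0.85), Mrpl1 (0.84) and Mrps10 (0.55).

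To ask whether ischemia changed any member, edgeR's quasi-likelihood test was fitted across all genes, and a gene was called at a Benjamini-Hochberg adjusted p under 0.05 and a fold change over 1.5. No member was called at 1 h against Normal, where 0.0581% of all genes were called, at 4 h against Normal (0.0904% of all genes), at 4 h against 1 h (0% of all genes) or with the 3 groups together (0.0388% of all genes). DESeq2 called none either, while it called 4.53%, 3.94%, 0% and 4.32% of all genes in the same 4 comparisons. At an unadjusted p under 0.05 edgeR gave 0 members higher and 3 lower at 1 h, where 7.98% of all genes were higher and 8.67% lower. At 4 h it gave 1 higher and 2 lower, where 5.07% of all genes were higher and 7.35% lower, and at 4 h against 1 h it gave none, against 2.58% of all genes. DESeq2 gave 4, 4 and 0 members at an unadjusted p under 0.05, and with the 3 groups together each tool gave 1. The all-gene shares were 21.3%, 15.4%, 3.68% and 15.9% for DESeq2 in the 4 comparisons and 11.4% for edgeR with the 3 groups together. The members' shares lay under those of all genes in each of these. The smallest adjusted p of any member by edgeR was 0.267 at 1 h and 0.316 at 4 h.

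The intervals say how large a change could have been missed. The 95% interval of the fold change lay within 2-fold either way for 52 of 70 members at 1 h and for 54 at 4 h, or 74.3% and 77.1% of members, against 33.5% and 37.3% of all genes. It lay within 1.5-fold for 7 members at 1 h and 8 at 4 h. A fitted change over 1.5-fold was found for 5 members at 1 h (7.14%, against 37.7% of all genes) and for 3 at 4 h (4.29% against 32.7%). These shares of all genes were not matched to the members in expression level. A change of 2-fold thus lay outside the interval for most members, and a change of 1.5-fold lay inside it for most.

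**Figure D3:**
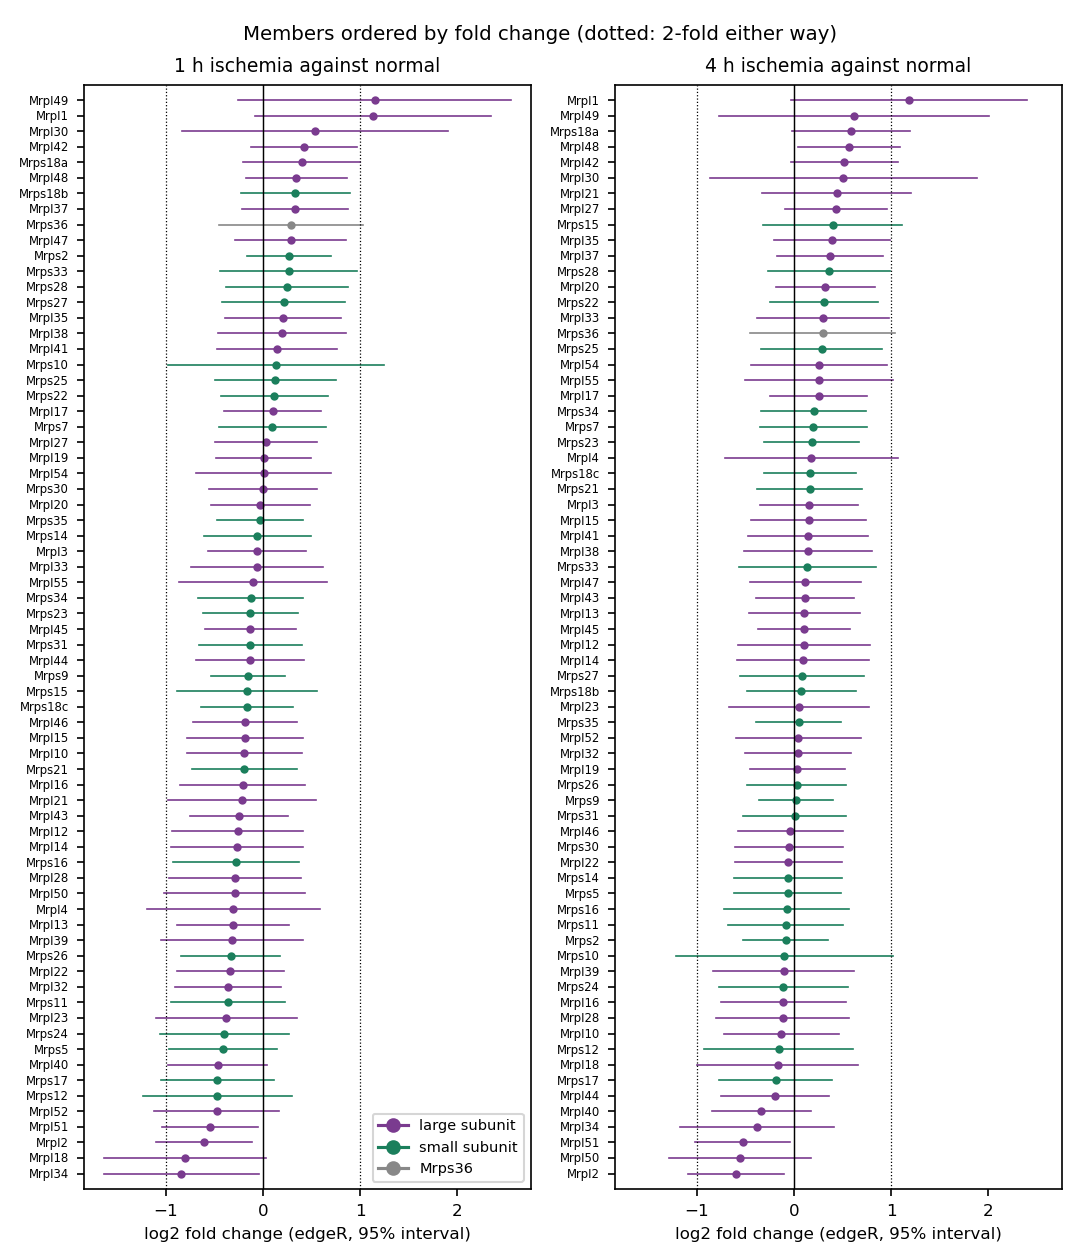
Points are the log2 fold change of each tested member and lines its 95% interval from edgeR, at 1 h (left) and 4 h (right) against Normal, ordered by size within each panel. Dotted lines mark a 2-fold change. Most intervals cross 0 and end before the dotted lines, and Mrpl49, Mrpl1 and Mrpl30 have the widest ones on the right of 0.

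No direction of the set as a whole held under every setting. The median log2 fold change was -0.13 at 1 h (all genes: -0.01), with 25 members above 0 and 45 below. At 4 h it was 0.10 (all genes: 0.03), with 47 above and 23 below. Between 4 h and 1 h it was 0.19 (all genes: -0.04), with 57 above and 13 below. The last 2 rest on the scaling: with library size alone the medians became -0.07 and -0.03, those of all genes -0.15 and -0.24, and the counts 24 above and 46 below, and 30 above and 40 below. Relative to the median of all genes the difference between 4 h and 1 h stayed near 0.23 by TMM and 0.21 by library size. The comparisons with Normal share its 3 libraries, and without replicate 1 of Normal their medians were -0.25 and -0.02. Without replicate 3 of Normal the median at 1 h was -0.0040, and with the nerve score (defined below) as covariate it was 0.037. The score ran from -0.46 to 4.14 in Normal and from 4.56 to 7.68 at 1 h, without overlap. So covariate values at 1 h rest on a slope carried between groups that share no score. Without the 3 libraries highest in nerve genes the median between 4 h and 1 h was 0.48, and with the covariate it was 0.083. The first of these rests on 1 library at 1 h, replicate 2, where 6 of the 70 members stood above their mean. The large subunit had medians of -0.16 and 0.11 at 1 h and 4 h, and the small subunit of -0.13 and 0.05.

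The members with the lowest fold changes belonged mainly to the large subunit, as do 44 of the 70 tested members. Mrpl2, which lies in the core near the peptidyl transferase centre, was at 13.8, 15.5 and 15.2 CPM in Normal, 11.6, 8.09 and 9.52 CPM at 1 h and 9.43, 11.4 and 8.65 CPM at 4 h. Every ischemic library lay below every Normal library. The log2 fold change was -0.61 ± 0.22 (SE) at 1 h, with an adjusted p of 0.267 by edgeR, and -0.60 ± 0.22 at 4 h, with an adjusted p of 0.316, so Mrpl2 did not pass the test. Its neighbour Klc4 was at 37.6, 50.9 and 42.3 CPM in Normal, 34.4, 29.3 and 24 CPM at 1 h and 45.6, 42.8 and 27.7 CPM at 4 h. Klc4 was thus below Normal in each 1 h library and overlapped with it at 4 h.

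Mrpl51, a protein found only in mitochondrial ribosomes, was at 27.3, 34.2 and 39.7 CPM in Normal, 24.1, 21.5 and 23.5 CPM at 1 h and 28.2, 23.3 and 18.6 CPM at 4 h. The groups did not overlap at 1 h and did at 4 h. The log2 fold change was -0.55 ± 0.21 and -0.53 ± 0.21, with adjusted p of 0.284 and 0.364 by edgeR. Mrpl34, a small core protein of the large subunit, was at 15.5, 20.2 and 27.9 CPM in Normal, 14.7, 10.7 and 10.1 CPM at 1 h and 22.2, 16.8 and 9.84 CPM at 4 h. Its 1 h libraries were all below Normal, by -0.84 ± 0.35 on the log2 scale (adjusted p = 0.292, edgeR), and its 4 h libraries ran across the Normal range. Mrpl40 was at 12.7, 13.4 and 16.5 CPM in Normal, 12.4, 9.43 and 8.91 CPM at 1 h and 12.2, 11.7 and 9.77 CPM at 4 h. Like Mrpl2, it was below Normal in all 6 ischemic libraries, by -0.47 ± 0.22 and -0.34 ± 0.22.

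Mrpl18, which is known to bind 5S rRNA in the cytosol, spanned 18.8 to 41.7 CPM in Normal, 14.1 to 21.9 CPM at 1 h and 16.9 to 32.7 CPM at 4 h. Its log2 fold change at 1 h was -0.81 ± 0.36, larger in size than that of Mrpl2, but the Normal libraries differed from each other by more. Mrpl52 was at -0.48 ± 0.28 at 1 h and 0.04 ± 0.28 at 4 h. Mrpl50 was at -0.29 ± 0.32 and -0.56 ± 0.32. With the nerve score as covariate the 1 h values became -0.49 for Mrpl34, -0.45 for Mrpl18, -0.36 for Mrpl51 and -0.066 for Mrpl52, and that of Mrpl50 became -0.54. These covariate values rest on a slope carried between groups that share no score. Without the 3 libraries highest in nerve genes the 1 h values were -0.98 for Mrpl34, -0.95 for Mrpl18, -0.64 for Mrpl51 and -0.42 for Mrpl52, and the 4 h value of Mrpl34 was -0.11. That setting left only replicate 2 at 1 h, a library in which most members were low.

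Over all members, the 1 h libraries lay wholly below Normal for 9 (Mrpl2, Mrpl22, Mrpl32, Mrpl34, Mrpl40, Mrpl51, Mrps5, Mrps18c and Mrps26) and wholly above it for 0, where all genes gave 13.5% and 12.8%. The 9 are 12.9% of the 70, so this count is near the background. At 4 h, 2 members lay wholly below Normal (Mrpl2 and Mrpl40, all genes 10.8%) and 5 wholly above it (Mrpl1, Mrpl27, Mrpl42, Mrpl48 and Mrps18a, all genes 7.93%). Between 4 h and 1 h, 1 member, Mrps23, lay wholly above (all genes 3.2%) and 0 wholly below (all genes 3.04%).

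Among members with a mean of at least 5 CPM, the highest fold changes at 4 h were those of other large subunit proteins. Below that level, Mrpl1, also of the large subunit, had the largest log2 fold change of any member at 4 h, 1.18 ± 0.53 with a 95% interval from -0.03 to 2.40, and 1.13 ± 0.53 at 1 h. It was at 0.616, 1.46 and 2.81 CPM in Normal, 4.28, 2.74 and 3.62 CPM at 1 h and 2.81, 4.56 and 3.70 CPM at 4 h, from 11 to 64 counts a library. Mrpl48, found only in mitochondrial ribosomes, was at 18.2, 19.5 and 22.3 CPM in Normal, 31.7, 19.3 and 24.9 CPM at 1 h and 34.6, 29.2 and 25.1 CPM at 4 h. Its 4 h libraries were above all Normal ones, by 0.57 ± 0.23 on the log2 scale (adjusted p = 0.36, edgeR). Mrps18a was at 14.4, 17.1 and 24.4 CPM in Normal, 30.1, 17.8 and 25.7 CPM at 1 h and 30.2, 27.7 and 25.9 CPM at 4 h, a log2 fold change of 0.40 ± 0.26 and 0.58 ± 0.26. Mrpl42 was at 9.52, 11.3 and 14.5 CPM in Normal, 18.9, 12.2 and 16.1 CPM at 1 h and 18.1, 16.8 and 15.6 CPM at 4 h, a change of 0.42 ± 0.24 and 0.52 ± 0.24. In all 3, replicate 2 at 1 h lay within the Normal range. Without the 3 libraries highest in nerve genes, only that replicate was left at 1 h, and Mrpl48, Mrps18a and Mrpl42 were then at -0.04, -0.06 and 0.05.

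**Figure D4:**
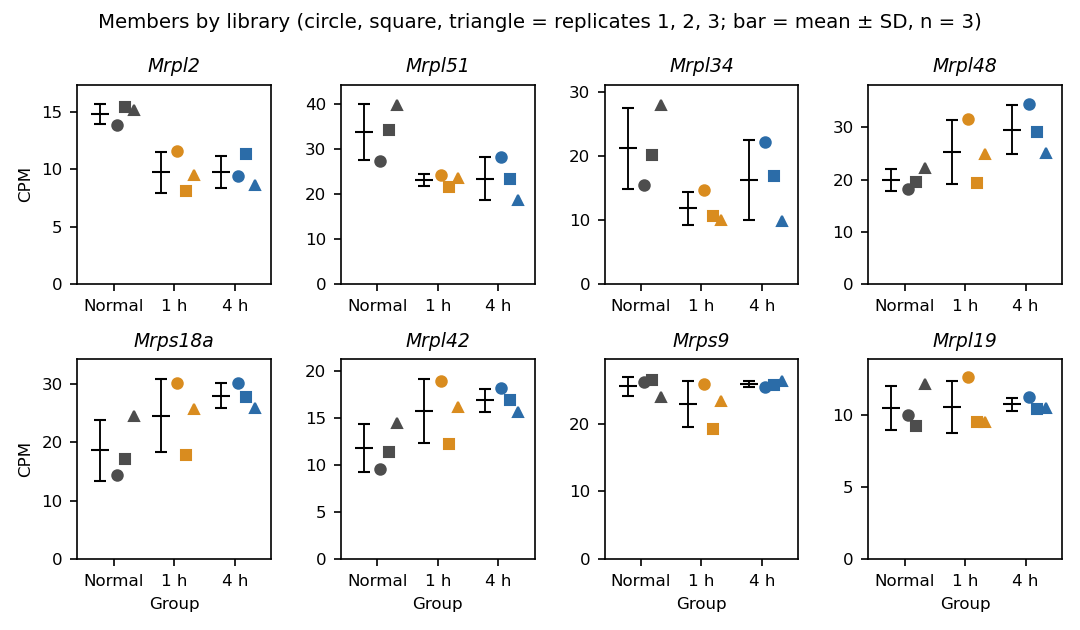
CPM of 8 members by group, with 1 point a library (circle, square and triangle for replicates 1, 2 and 3) and the bar as mean ± SD (n = 3). Mrpl2 lies lower in all 6 ischemic libraries, Mrpl51 and Mrpl34 lie lower at 1 h, Mrpl48, Mrps18a and Mrpl42 lie higher at 4 h, and Mrps9 and Mrpl19 are level.

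The 3 paralogues of the bacterial S18 family, which occupy different places in the ribosome, had different values. Mrps18a, in the large subunit, is given above. Mrps18b was at 15.9, 18.2 and 19.6 CPM in Normal, 28.7, 15.7 and 23.2 CPM at 1 h and 19.8, 16.2 and 20.5 CPM at 4 h, so it overlapped Normal at both stages. Mrps18c was at 10.7, 11.2 and 10.5 CPM in Normal, 10.1, 9.09 and 9.71 CPM at 1 h and 12.7, 14 and 9.57 CPM at 4 h. No test of the difference between the paralogues was made.

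Mrpl49 had the largest spread of all members and its high values fell in both ischemic groups. It was at 6.05, 7.23 and 10.05 CPM in Normal, 25.4, 5.55 and 20.7 CPM at 1 h and 8.52, 6.47 and 20.7 CPM at 4 h. The 3 high values belong to the 3 libraries with the highest nerve genes, which also had the highest Ucp1. The log2 fold change was 1.15 ± 0.61 at 1 h (adjusted p = 0.34, edgeR) and 0.61 ± 0.61 at 4 h. Without these 3 libraries, which left only replicate 2 at 1 h, it was -0.48 and -0.04. With the nerve score as covariate it was 0.12 and 0.33, the first of these between groups whose scores do not overlap. Fau, whose start lies 186 bases away, went the other way. It was at 154, 174 and 166 CPM in Normal, 92, 139 and 95 CPM at 1 h and 192, 189 and 111 CPM at 4 h, and its 3 lowest values were in the 3 libraries where Mrpl49 was highest. Mrps10 was at 4.09, 3.87 and 6.28 CPM in Normal, 6.82, 2.47 and 6.27 CPM at 1 h and 2.81, 3.65 and 6.8 CPM at 4 h, also high in those 3 libraries and, in addition, in replicate 3 of Normal.

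In a fit of group and nerve score (log2 CPM averaged over the 24 nerve genes), whose slope was read after these values were seen, no member had a slope with an adjusted p under 0.05. Of all genes 10.4% had such a slope upward and 1.07% downward. Mrpl49 had a log2 slope of 0.20 ± 0.07 per unit of the score (adjusted p = 0.114, edgeR), Mrps10 of 0.16 ± 0.06 (0.114) and Mrpl4 of -0.14 ± 0.05 (0.109). Fau had a slope of -0.10 ± 0.03 (adjusted p = 0.0607, edgeR). Below 0 lay the slope of 48 of the 70 members, and 52.5% of all genes had a slope above 0. The part of nerve tissue in these values was not tested beyond this fit, and that of tissue with Ucp1 was not tested.

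**Figure D5:**
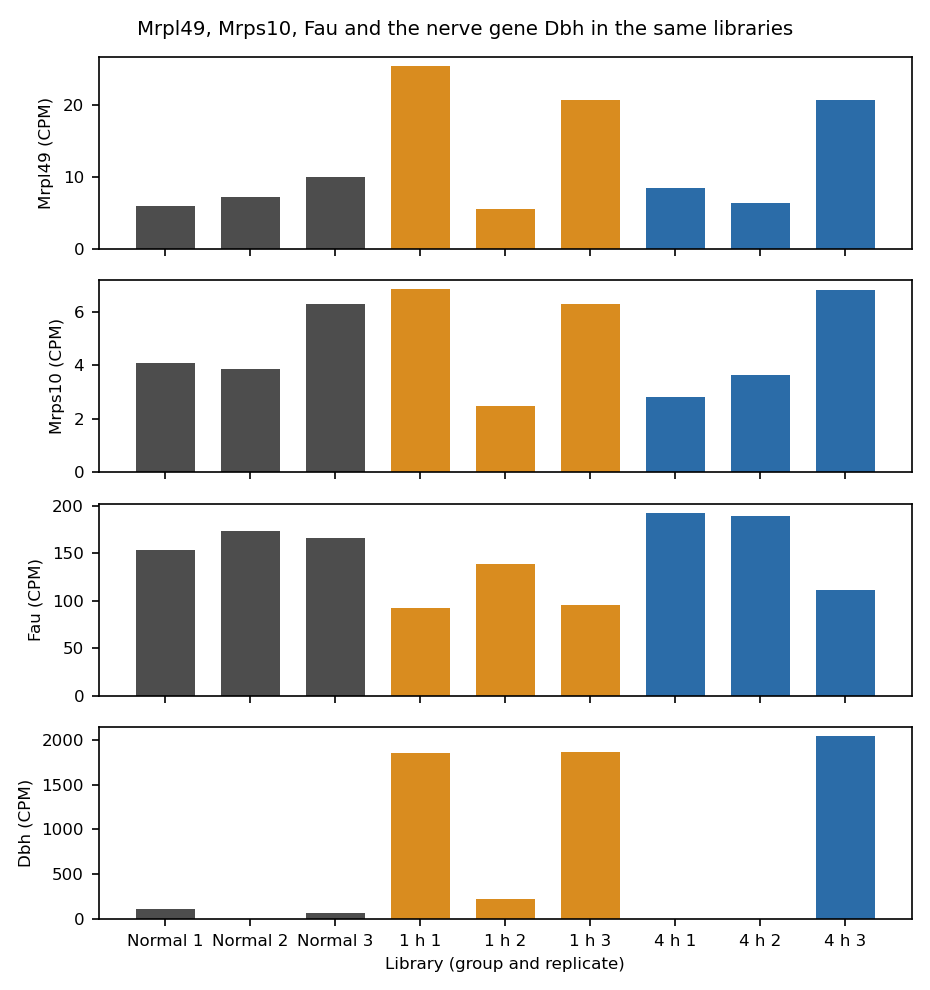
Bars are CPM in each of the 9 libraries for Mrpl49, Mrps10, Fau and Dbh, from top to bottom, coloured by group. Mrpl49 is at 20.7 to 25.4 CPM in the 3 libraries where Dbh is at 1854 to 2041 CPM, and Fau is lowest in these.

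Among members with a known part in the ribosome, none passed the test. Mrpl12 and Mrpl10, of the stalk that binds translation factors, were at 24.2, 26.2 and 39.9 CPM and at 22.8, 27.4 and 33.3 CPM in Normal. Their log2 fold changes were -0.26 ± 0.30 and -0.19 ± 0.26 at 1 h and 0.10 ± 0.30 and -0.13 ± 0.26 at 4 h. Mrps12, of the decoding centre, was at 8.51, 13.6 and 15.7 CPM in Normal, 11.4, 9.09 and 6.76 CPM at 1 h and 14, 12 and 7.86 CPM at 4 h, with a log2 fold change of -0.47 ± 0.33 at 1 h, and the groups overlapped. Around the exit tunnel, Mrpl45, which holds the ribosome to the inner membrane, had -0.13 ± 0.21 and 0.10 ± 0.21, Mrpl22 -0.34 ± 0.24 and -0.06 ± 0.24, and Mrpl23 -0.38 ± 0.32 and 0.05 ± 0.32. Mrps30 and Mrpl41, both linked to apoptosis in earlier work on other cells, had log2 fold changes from -0.05 to 0.14 at both stages, with 95% intervals from -0.56 to 0.76 at 1 h and from -0.61 to 0.76 at 4 h.

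Mrpl44, Mrpl19, Mrpl21, Mrpl27, Mrpl32 and Mrpl47 are further large subunit proteins. Mrpl44 had log2 fold changes of -0.14 ± 0.24 and -0.19 ± 0.24, Mrpl19 of 0.01 ± 0.21 and 0.03 ± 0.21, and Mrpl47 of 0.28 ± 0.25 and 0.12 ± 0.25 at 1 h and 4 h. Mrpl27, a core protein near the peptidyl transferase centre, was at 13.1, 15.8 and 16.8 CPM in Normal, 19.6, 13.3 and 13.8 CPM at 1 h and 24.3, 19.6 and 17.7 CPM at 4 h, with a log2 fold change of 0.43 ± 0.23 at 4 h. Mrpl32, which is processed by the m-AAA protease before assembly, was at 10.5, 12.4 and 12.3 CPM in Normal, 10.4, 8.22 and 8.79 CPM at 1 h and 13.2, 14.2 and 8.91 CPM at 4 h. Its 1 h libraries were all below Normal, by -0.36 ± 0.24, and its 4 h libraries were not. Mrpl21 was at 0.44 ± 0.33 at 4 h against Normal and at 0.66 ± 0.34 against 1 h, the largest value of any member in that comparison. Mrpl18, Mrps15, Mrpl52 and Mrpl4 came next, at 0.64, 0.56, 0.52 and 0.49, and Mrps2 and Mrpl50 had the lowest values after Mrpl49, at -0.36 and -0.27. The adjusted p was 0.856 or more for every member between 4 h and 1 h.

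4 members had too few counts to test. Mrps17-ps1 was at 0 in every library, Mrps21l had 1 count in replicate 3 at 1 h, and Mrpl36 had 1 count in replicate 2 at 1 h, 14 in replicate 3 at 4 h and none in the others. Mrpl53 had 18, 7 and 4 counts in Normal, 4, 2 and 1 at 1 h and 2, 3 and 4 at 4 h. Mrpl30 was tested at 0.401 to 1.29 CPM, and RefSeq names 9 copies of it. Copies (pseudogenes or like genes) are named for 24 members, Mrpl2, Mrpl40, Mrpl42 and Mrpl1 included, and how the counting treated reads shared with them is not given, so the values of these genes are less certain.

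The rest of the mitochondrial translation pathway was read from fixed lists, in which edgeR called 0 genes. 8 further proteins of or at the ribosome that carry other names, Dap3, Ptcd3 and Oxa1l among them, had a median log2 fold change of -0.33 at 1 h and -0.03 at 4 h. All 8 were below 0 at 1 h, where 49.4% of all genes were above 0, and none passed an unadjusted p of 0.05. Between 4 h and 1 h all 8 were above 0, as were 46.4% of all genes. Oxa1l, which inserts new proteins into the inner membrane, was at -0.44 ± 0.20 at 1 h. Ict1, the peptidyl-tRNA hydrolase also called Mrpl58, was at 13, 20.4 and 23.7 CPM in Normal, 15.4, 10.8 and 9.46 CPM at 1 h and 22.5, 16.3 and 8.85 CPM at 4 h. Of 13 translation factors 2 were lower at an unadjusted p under 0.05 at 1 h (all genes: 8.67%) and 3 at 4 h (all genes: 7.35%), and 0 higher (all genes: 7.98% and 5.07%). Among these, Pdf, which takes the formyl group off new mitochondrial proteins, was at 10.2, 11.8 and 12.3 CPM in Normal, 8.23, 4.08 and 3.93 CPM at 1 h and 4.46, 4.56 and 5.02 CPM at 4 h. All 6 ischemic libraries were below Normal, by -1.08 ± 0.32 (adjusted p = 0.232, edgeR) and -1.28 ± 0.33 (0.176). Mtfmt, which adds that formyl group to the initiator tRNA, was at -0.66 ± 0.24 at 1 h.

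Of 19 genes for ribosome assembly and rRNA modification, 2 were higher and 5 lower at 1 h and 1 higher and 3 lower at 4 h, by the same unadjusted threshold (all genes: 7.98% higher and 8.67% lower at 1 h, 5.07% and 7.35% at 4 h). Mettl17, which acts on the small subunit, was at 19.9, 19 and 17.4 CPM in Normal, 10.1, 9.29 and 10.6 CPM at 1 h and 15.5, 11.7 and 8.12 CPM at 4 h. It was below Normal in all 6 ischemic libraries, by -0.91 ± 0.25 (adjusted p = 0.218, edgeR) and -0.67 ± 0.25. Ddx28, a helicase of large subunit assembly, was at 8.12, 10.9 and 7.39 CPM in Normal, 5.49, 4.75 and 6.14 CPM at 1 h and 4.71, 4.06 and 5.35 CPM at 4 h. Mpv17l2 had -0.85 ± 0.24 at 1 h and Rpusd4 -0.78 ± 0.27 at 4 h.

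Of 20 aminoacyl-tRNA synthetase genes 2 were higher and 2 lower at 1 h (all genes: 7.98% and 8.67%) and 1 higher and 2 lower at 4 h (all genes: 5.07% and 7.35%), with Hars2 at -0.55 ± 0.19 and Fars2 at 0.56 ± 0.21 at 1 h, and Pars2 at -1.09 ± 0.35 at 4 h. Of 12 genes for mitochondrial transcription and DNA upkeep 3 were lower at 1 h (all genes: 8.67%) and 2 at 4 h (all genes: 7.35%). Polg, the DNA polymerase of mitochondria, was at 32.5, 31 and 41.9 CPM in Normal, 25.4, 27.7 and 25.4 CPM at 1 h and 23.6, 23.1 and 20.4 CPM at 4 h. All ischemic libraries lay below Normal, by -0.65 ± 0.17 at 4 h (adjusted p = 0.188, edgeR). Tefm, the elongation factor, had -1.04 ± 0.33 and -1.05 ± 0.33. Of 9 regulators, Myc alone passed the unadjusted threshold at 1 h, at 1.66 ± 0.58, and it was at 28.2, 19.3 and 10.5 CPM in Normal against 22.1, 88.7 and 72.9 CPM at 1 h.

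The 34 tested nuclear genes of respiratory complex I, another complex with subunits from both genomes, had medians of 0.07 at 1 h and 0.28 at 4 h. Ndufs4, a subunit of its peripheral arm, was at 0.48 ± 0.16 at 4 h (adjusted p = 0.265, edgeR). The members' own medians were -0.13 and 0.10, and the difference between the modules was not tested.

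The ribosomal RNAs that these proteins surround come from the mitochondrial genome. Rnr2, the 16S rRNA of the large subunit, was at 1801, 1293 and 3129 CPM in Normal, 4642, 2752 and 1524 CPM at 1 h and 6876, 8060 and 3232 CPM at 4 h. Each 4 h library was above each Normal one, the closest pair being 3232 and 3129, and the log2 fold change was 1.55 ± 0.58 (adjusted p = 0.332, edgeR). Rnr1, the 12S rRNA of the small subunit, was at 1327, 802 and 2366 CPM in Normal, 1499, 1218 and 729 CPM at 1 h and 1499, 2243 and 939 CPM at 4 h, with 0.06 ± 0.50 at 4 h. How ribosomal RNA was handled before sequencing is not given in the sources used here. The 13 messenger RNAs of the mitochondrial genome and the 2 rRNAs together had a median log2 fold change of -0.51 at 1 h and 0.06 at 4 h. Their median SE was 0.63 at both stages, and 0 of their 95% intervals lay within 2-fold. Above 0 at 1 h were 2 genes, Rnr2 (0.52 ± 0.57) and ND6 (0.78 ± 0.31, adjusted p = 0.285, edgeR). At 4 h ND6 was at 0.90 ± 0.31 (adjusted p = 0.296, edgeR), and each 4 h library was above each Normal one.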

How the data were processed

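RNA of the SMA was sequenced in 9 libraries. The submitters' processing notes name HISAT2. The genome build, the annotation, the counting program and its strand setting are not given in the sources used here, and the study also describes arrays, while the table holds whole numbers. The authors deposited raw read counts per gene symbol with no normalization. 15482 of 37203 genes passed filterByExpr. Counts were scaled by TMM and tested in R 4.3.3 with edgeR 4.0.16 (glmQLFit, glmQLFTest, group only, all 9 libraries) and with DESeq2 1.42.0, with Benjamini-Hochberg adjustment over all genes. Called means adjusted p under 0.05 and over 1.5-fold. SEs are on the log2 scale. The fit was also run on counts simulated from its own estimates of spread. These held no tissue differences between libraries, so the run is no check on such differences. Counts carry no molecular identifiers, and 1 CPM equals 12.1 to 17.9 counts.

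Members and lists were chosen with earlier results of these data known. Named in the text were, in each comparison, the 5 members with the highest and the 5 with the lowest log2 fold change at a mean of at least 5 CPM, the 3 with the largest and smallest SD, members with a fixed role, untested members and at most 2 genes of lowest p of each pathway list. The others (Klc4, Fau, Ndufb5, non-overlapping members, Ddx28 at 1 h) were chosen after their values were seen. Levels were not compared between genes, since no lengths were used here, so the naming of members by level per length could not be applied. Mrpl9, Mrpl11, Mrpl24 and Mrps6 were not analysed here. Of the 74 symbols, 73 matched RefSeq (GRCr8), which gave the promoters. Alternatives were DESeq2, other scalings, no filter, 2 groups at a time, a replicate block, a nerve covariate and leaving out libraries.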

Additional observations from a re-analysis of the deposited data

How the results depend on the processing

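No member was called by edgeR under any setting tried, with 0 to 10 members at an unadjusted p under 0.05 (10 at 4 h against 1 h without Ischemia 4h replicate 3), and none by DESeq2, whose adjusted p for 1 member at 1 h was not given. Medians over members when 1 library was left out ran from -0.25 (without Normal replicate 1) to -0.0040 (without Normal replicate 3) at 1 h, from -0.030 (without Ischemia 4h replicate 1) to 0.22 (without Ischemia 4h replicate 3) at 4 h, and from 0.048 (without Ischemia 4h replicate 1) to 0.33 (without Ischemia 1h replicate 1) between 4 h and 1 h. With the nerve score as covariate the median at 1 h was 0.037, between groups whose scores do not overlap. Without the mitochondrial genome genes in the library size the mean summed CPM was 1689 in Normal, 1568 at 1 h and 1812 at 4 h, since the total that the counts are divided by is smaller. Without the 3 libraries highest in nerve genes, a setting chosen after seeing the data that leaves 1 library at 1 h, assumed to vary like the other groups, the median between 4 h and 1 h was 0.48. Single members turned direction there, and the cause was not tested: at 1 h Mrpl48 to -0.041, Mrpl49 to -0.48, Mrps18a to -0.065 and Mrps18b to -0.18, at 4 h Mrpl49 to -0.042, and between 4 h and 1 h Mrpl49 to 0.44, Mrpl50 to 0.15 and Mrps18b to 0.20. With the nerve covariate Mrpl4 turned to -0.14 and Mrpl49 to 0.20 between 4 h and 1 h. Leaving out single libraries moved Mrpl49 at 4 h from -0.050 (without Ischemia 4h replicate 3) to 0.91, and Mrpl47 between 4 h and 1 h from -0.32 to 0.028 (without Ischemia 4h replicate 2). For members in the comparisons where they were among the 5 highest or 5 lowest, the other 528 values kept their direction and their side of the threshold. Outside those comparisons, values with the nerve covariate are given only for members named by fold change or SD, and not for others such as Mrpl23 and Mrpl45. Among the members so named, the covariate turned further values: at 1 h Mrps10 to -0.64, Mrpl4 to 0.28, Mrpl21 to 0.066, Mrps15 to 0.099, Mrps35 to 0.016 and Mrpl19 to -0.058, and between 4 h and 1 h Mrps10 to 0.39, Mrpl2 to -0.056 and Mrpl51 to -0.16.

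With a replicate block, edgeR called 7 genes at 1 h, 7 at 4 h and 0 between 4 h and 1 h, against 9, 14 and 0 without it, and 0 members. Deviations of libraries with the same number correlated from -0.65 to 0.66, so the numbers were not taken to pair the samples. DESeq2 called 702 and 610 genes at 1 h and 4 h, and 669 with the 3 groups together against 6 by edgeR, and the cause was not tested. With the nerve covariate 118 genes were called at 4 h. With 3 libraries a group and a common biological coefficient of variation of 51.6%, most intervals of members cover 1.5-fold.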
